A study of Mus musculus with 9 samples.

Results

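The 10 genes described here encode chemokine ligands that myeloid cells are known to make, followed in HPC7 cells with and without Snai1. They were 10 of the 27179 genes in the deposited count table, taken by their mouse symbols: Ccl2, Ccl3, Ccl4, Ccl5, Ccl6, Ccl7, Ccl9, Ccl12, Cxcl2 and Cxcl10. The rule itself uses symbols only, but the genes were picked with earlier results of these libraries known, so their counts below are not independent evidence of a direction. HPC7 is a mouse blood progenitor line kept in stem cell factor, here at 100 ng/ml. Cells received an MSCV retrovirus that also encodes green fluorescent protein, were sorted for that fluorescence 1 week later, and their messenger RNA was sequenced. The 9 libraries formed 3 groups of 3. The first carried wild-type Snai1, a zinc finger repressor known from the epithelial-mesenchymal transition. The second carried a mutant Snai1 in which the phenylalanine at residue 5 is an alanine, a change that impairs contact with the histone demethylase Lsd1, the product of Kdm1a. The third carried the empty vector, and all 3 groups share the cell line, the vector backbone and the fluorescent marker. The model is 1 cultured line with Snai1 expressed from a virus, and the labels do not say whether libraries of a group came from separate transductions, so every p-value measures only the spread between these libraries.

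Chemokines are small secreted proteins that draw leukocytes along a gradient through G protein-coupled receptors. Ccl2, Ccl7 and Ccl12 act on Ccr2 and recruit monocytes. Ccl3 and Ccl5 act on Ccr1, as do Ccl6 and Ccl9, which in mice are made by macrophages and myeloid progenitors, and Ccl4 is a close relative of Ccl3 made by activated macrophages. Cxcl2 acts on Cxcr2 and recruits neutrophils, and Cxcl10 acts on Cxcr3 of activated T cells and is a classical interferon target. In macrophages many of these genes are switched on by inflammatory stimuli through NF-kB.

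The libraries held 18332451 to 20860314 counts in total. Levels are given as counts-per-million values (CPM) on library sizes scaled by the TMM method, and 3 counts in a library corresponded to 0.144 to 0.161 CPM. Snai1 stood at 425, 488 and 562 CPM with wild-type Snai1, at 470, 415 and 493 CPM with mutant Snai1, and at 1.06, 0.722 and 0.697 CPM with empty vector. The wild-type and mutant groups overlapped, with a log2 fold change of 0.10 (SE 0.11, edgeR adjusted p = 0.479) between them. The libraries labelled as carrying Snai1 thus held its transcript, while gene counts cannot tell the mutant from the wild-type form. These reads include the vector's own transcript. Kdm1a averaged 201, 199 and 200 CPM in the wild-type, mutant and empty vector groups. All 14 genes on a list of blood progenitor markers passed the low-count filter, among them Kit, the stem cell factor receptor, at means of 3388 CPM with wild-type Snai1 and 3612 CPM with empty vector. Of the 14, 3 were called higher and 4 lower with wild-type Snai1 than with empty vector at an edgeR adjusted p under 0.05, and 0 were called with mutant Snai1. With wild-type Snai1 that was 21.4% higher and 28.6% lower, near the 25.2% and 24.3% of all genes that passed the filter. With mutant Snai1 0.00801% of all these genes were called. Lmo2, a transcription cofactor of blood progenitors, averaged 133.8 CPM with wild-type Snai1 and 66.3 CPM with empty vector, and Myb, a transcription factor of immature blood cells, averaged 556 CPM with wild-type Snai1 and 882 CPM with empty vector.

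Of the ligand genes, 8 lie on chromosome 11 and 2 on chromosome 5 (GRCm38.p6, the assembly behind the mm10 build of the counts). Ccl2 (82035577 to 82037452), Ccl7 (82045712 to 82047525) and Ccl12 (82101845 to 82103399) form one cluster on chromosome 11. Ccl5 (83525778 to 83530518), Ccl9 (83572917 to 83578636), Ccl6 (83587886 to 83593087), Ccl3 (83647843 to 83649378) and Ccl4 form another. RefSeq starts Ccl4 at 83648624, inside the span of Ccl3, whereas GENCODE M21 starts it at 83662584, outside it. Both end Ccl4 at 83664683. Cxcl2 (90903899 to 90905938) and Cxcl10 (92346638 to 92348889) are on chromosome 5.

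RefSeq promoter windows were on hand for 6 of the 10 genes, and the 250 bases upstream of the start were searched on both strands. Windows of 4 genes are shown, on the gene's own strand: Ccl3 because it rose the most, Ccl9 and Cxcl2 because their profiles over the libraries ran closest to that of Ccl2, and Cxcl10 because it holds the most matches while its own counts stayed near 0. They lie at chr11:83649379-83649628 (minus strand), chr11:83578637-83578886 (minus strand), chr5:90903649-90903898 (plus strand) and chr5:92348890-92349139 (minus strand). Capitals mark every match to the motifs searched.
Ccl3: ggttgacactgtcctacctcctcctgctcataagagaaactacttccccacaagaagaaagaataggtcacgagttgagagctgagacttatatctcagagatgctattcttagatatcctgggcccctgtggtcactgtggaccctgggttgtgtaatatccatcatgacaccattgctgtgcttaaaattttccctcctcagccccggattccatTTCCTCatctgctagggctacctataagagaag
Ccl9: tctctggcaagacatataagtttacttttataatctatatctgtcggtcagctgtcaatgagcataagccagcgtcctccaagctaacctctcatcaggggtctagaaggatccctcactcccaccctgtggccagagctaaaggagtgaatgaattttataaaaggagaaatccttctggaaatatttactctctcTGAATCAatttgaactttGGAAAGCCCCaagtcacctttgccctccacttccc
Cxcl2: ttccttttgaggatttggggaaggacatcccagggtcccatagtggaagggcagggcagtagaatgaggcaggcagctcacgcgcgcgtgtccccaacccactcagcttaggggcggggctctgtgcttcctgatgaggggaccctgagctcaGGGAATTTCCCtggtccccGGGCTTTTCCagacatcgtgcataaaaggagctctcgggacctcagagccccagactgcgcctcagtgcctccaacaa
Cxcl10: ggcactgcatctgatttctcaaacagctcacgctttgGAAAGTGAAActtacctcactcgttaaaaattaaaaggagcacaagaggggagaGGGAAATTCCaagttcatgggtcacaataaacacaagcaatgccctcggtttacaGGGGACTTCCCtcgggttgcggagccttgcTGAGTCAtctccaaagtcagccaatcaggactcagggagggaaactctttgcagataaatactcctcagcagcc

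The searched letters were CAGGTG for the E-box that Snail factors bind, TGANTCA for AP-1, GGG and CC with any 5 bases between them for the NF-kB frame, GAAA repeated after any 2 bases for the core of the interferon response element, TTGCNNAA for C/EBP and GAGGAA for the PU.1 core. The Snail E-box letters occurred in 0 of the 6 windows, against 17.2% of all 32851 RefSeq windows of this length. AP-1 letters occurred in Ccl9 (TGAATCA) and Cxcl10 (TGAGTCA), and in 6.75% of all windows. The NF-kB frame occurred in Ccl9, Cxcl2 and Cxcl10, and in 45.8% of all windows, so this loose frame is common. In Cxcl2 its first matches, GGGAATTTCC and GGAATTTCCC, overlap by 9 bases, and in Cxcl10 GGGGACTTCC and GGGACTTCCC do the same. The interferon element letters were found in Cxcl10 (GAAAGTGAAA) and in 2.98% of all windows. PU.1 letters were in Ccl3 (as TTCCTC) and Ccl12, and in 23.3% of all windows, and C/EBP letters in 0 of the 6 and 9.56% of all. A match is a string of letters and not a measured binding site.

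With wild-type Snai1, 8 of the 10 ligand genes were higher than with empty vector, and the other 2, Ccl12 and Cxcl10, had too few counts to test. The rises ran from 2.34-fold for Ccl5 to 71.1-fold for Ccl3, with a median log2 fold change of 3.19 against 0 over all 12484 tested genes. Genes with an adjusted p under 0.05 are named as called, and by that rule 49.4% of all tested genes were called, 25.2% higher and 24.3% lower, so that a call alone was common. All 8 were at least 2-fold higher, as were 6.73% of all tested genes. In 9 of the 10 genes, all 8 tested ones among them, every wild-type Snai1 library lay above every empty vector library, which held for 28.1% of tested genes. The 8 tested genes also pass the filter when the wild-type Snai1 libraries are left out of it. Summed over the 10 genes, the level was 746 to 843 CPM with wild-type Snai1, 116 to 133 CPM with mutant Snai1 and 101 to 124 CPM with empty vector.

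**Figure D1:**
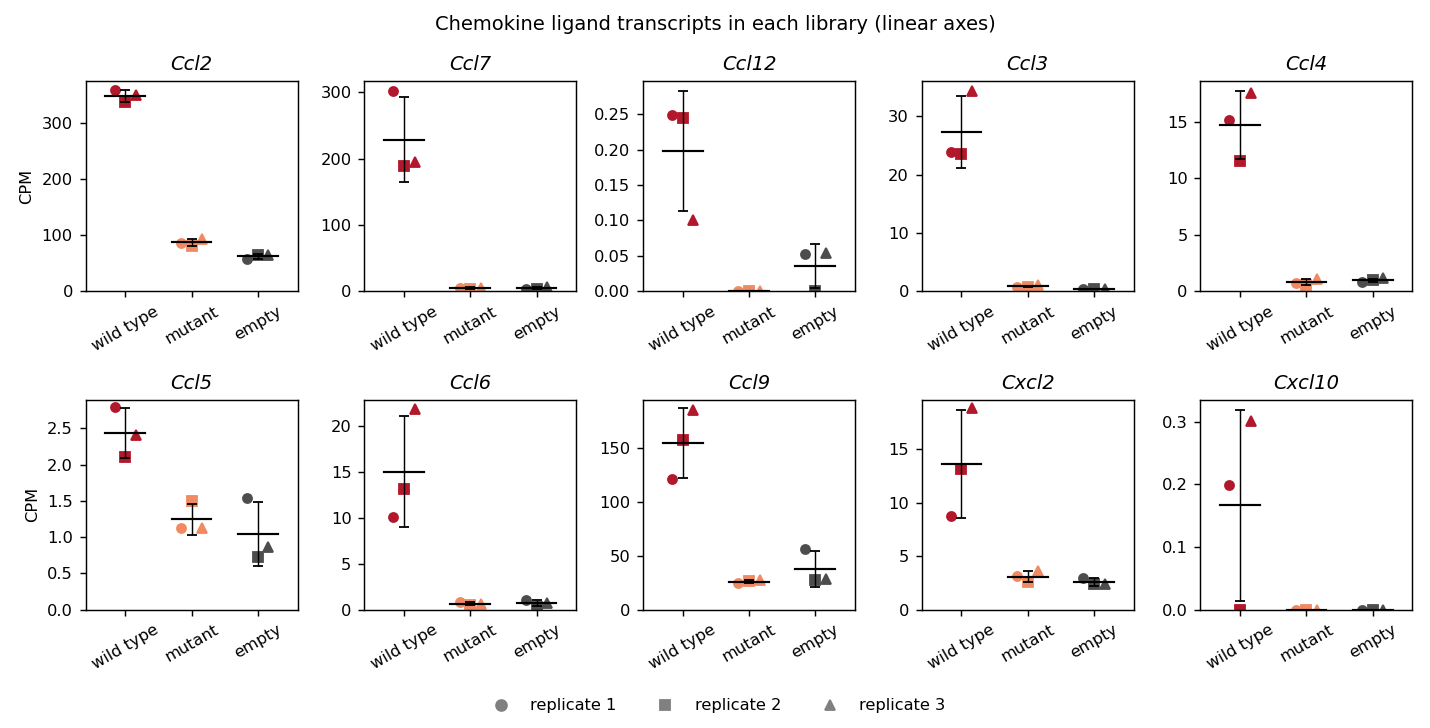
CPM of each ligand gene (vertical axes, linear, from 0) in every library, by group, with the bar at the mean and whiskers of 1 SD over 3 libraries. The wild-type Snai1 libraries stand above the mutant and empty vector libraries in every panel except Cxcl10, where 1 wild-type library is at 0.

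Of the Ccr2 ligands, Ccl2 was already well expressed without Snai1. It stood at 358, 337 and 350 CPM with wild-type Snai1, at 86.2, 81.0 and 93.0 CPM with mutant Snai1, and at 57.4, 65.2 and 64.3 CPM with empty vector. The 3 groups were separate, and the wild-type libraries varied by a coefficient of variation of 3.12%. The log2 fold change of wild-type Snai1 over empty vector was 2.48 (SE 0.07, edgeR adjusted p = 6e-09). Ccl7, its neighbour and a second monocyte attractant, was lower than Ccl2 in both other groups and rose by a larger fold. It stood at 302, 188 and 194 CPM with wild-type Snai1, at 4.74, 2.64 and 5.47 CPM with mutant Snai1, and at 3.62, 3.52 and 5.95 CPM with empty vector. Wild-type replicate 1 was the highest, the mutant and empty vector groups overlapped, and the log2 fold change over empty vector was 5.71 (SE 0.32, edgeR adjusted p = 1.88e-06). Per kilobase of transcript, the level of Ccl7 over that of Ccl2 was 0.848, 0.562 and 0.559 with wild-type Snai1, 0.0329 to 0.0591 with mutant Snai1 and 0.0542 to 0.0932 with empty vector. Ccl12, the remaining Ccr2 ligand, had 5, 5 and 2 counts with wild-type Snai1, 0 in each mutant library, and 1, 0 and 1 with empty vector. Its count ratio of wild-type Snai1 over empty vector, 5.78, has a 95% counting interval of 1.29 to 53.1.

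Of Ccl3, Ccl4 and Ccl5, inflammatory chemokines of macrophages and lymphocytes, Ccl3 had the largest fold change of wild-type Snai1 over empty vector, also among all 8 tested ligand genes. Ccl3 had 480, 482 and 686 counts with wild-type Snai1, 14, 15 and 19 with mutant Snai1, and 8, 8 and 6 with empty vector. These correspond to 23.9, 23.6 and 34.4 CPM with wild-type Snai1, to 0.713, 0.748 and 0.971 CPM with mutant Snai1, and to 0.425, 0.385 and 0.322 CPM with empty vector. No group overlapped another, and the log2 fold change of wild-type Snai1 over empty vector was 6.15 (SE 0.24, edgeR adjusted p = 3.59e-08). Ccl4, the relative of Ccl3, stood at 15.1, 11.5 and 17.5 CPM with wild-type Snai1, at 0.713, 0.549 and 1.07 CPM with mutant Snai1, and at 0.851, 0.963 and 1.13 CPM with empty vector. Its mutant and empty vector groups overlapped, and wild-type Snai1 exceeded empty vector by a log2 fold change of 3.90 (SE 0.24, edgeR adjusted p = 7.42e-07). Per kilobase, Ccl4 was the higher of the pair in every empty vector library and Ccl3 in every wild-type Snai1 library. Ccl5, also a ligand of Ccr1 and Ccr3, rose the least. It stood at 2.79, 2.10 and 2.41 CPM with wild-type Snai1, at 1.12, 1.496 and 1.12 CPM with mutant Snai1, and at 1.54, 0.722 and 0.858 CPM with empty vector. The wild-type libraries were all the highest, by a log2 fold change of 1.23 over empty vector (SE 0.28, edgeR adjusted p = 0.00475).

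Ccl6 and Ccl9 are close relatives of each other and bind Ccr1. Ccl6 stood at 10.2, 13.2 and 21.9 CPM with wild-type Snai1, at 0.815, 0.499 and 0.562 CPM with mutant Snai1, and at 1.06, 0.337 and 0.751 CPM with empty vector. The mutant and empty vector groups, with 37 and 41 counts in all, overlapped, and wild-type Snai1 exceeded empty vector by a log2 fold change of 4.40 (SE 0.39, edgeR adjusted p = 1.37e-05). Ccl9 had a higher starting level. It stood at 121, 157 and 185 CPM with wild-type Snai1, at 24.6, 26.1 and 27.1 CPM with mutant Snai1, and at 56.5, 27.3 and 28.8 CPM with empty vector. Empty vector replicate 1 lay apart from its group for Ccl9, and that library also gave 3.62% of its counts to 1 gene without a symbol, against 0.101% to 0.280% elsewhere. The log2 fold change of wild-type Snai1 over empty vector was 2.04 (SE 0.28, edgeR adjusted p = 0.00041), and 2.45 without that library. Of the 2996 stretches of 50 bases in Ccl9 transcripts, 1.97% also occur in other genes, and Ccl6 has none.

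Cxcl2, the neutrophil attractant, stood at 8.76, 13.2 and 18.8 CPM with wild-type Snai1, at 3.11, 2.54 and 3.58 CPM with mutant Snai1, and at 2.98, 2.36 and 2.41 CPM with empty vector. The mutant and empty vector libraries overlapped below all wild-type libraries, and the log2 fold change of wild-type Snai1 over empty vector was 2.39 (SE 0.27, edgeR adjusted p = 5.72e-05). Cxcl2 shares 5.84% of its 50-base stretches with Cxcl3, which itself had too few counts to test. Cxcl10 had 4, 0 and 6 counts with wild-type Snai1 and 0 in all mutant and empty vector libraries. Its mean with wild-type Snai1 was only 1.08 times the floor of 3 counts per empty vector library. The groups overlapped at 0, so a rise was not established. An exon of Cxcl10 overlaps Art3 on the other strand, and Art3 had 0 counts in every library. Without the strand setting of the counts, this does not show whether the overlap lowered the Cxcl10 counts.

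Compared per kilobase, the order of the genes also differed between groups. With wild-type Snai1 the order of mean levels was Ccl2 (432 CPM per kilobase), Ccl7 (285), Ccl9 (51.3), Ccl3 (34.5), Ccl4 (22.3), Cxcl2 (12.5), Ccl6 (10.5), Ccl5 (4.57), Ccl12 (0.369) and Cxcl10 (0.151). The ranges of Ccl9 and Ccl3, of Cxcl2 and Ccl6, and of Ccl12 and Cxcl10 overlapped, and other neighbours in this order did not. With mutant Snai1 the order was Ccl2 (108 CPM per kilobase), Ccl9 (8.62), Ccl7 (5.35), Cxcl2 (2.84), Ccl5 (2.34), Ccl4 (1.18), Ccl3 (1.03) and Ccl6 (0.435), and with empty vector it was the same but for the last places, Ccl6 (0.499) and Ccl3 (0.478), which overlapped. With mutant Snai1 the ranges of Ccl7 and Cxcl2, of Cxcl2 and Ccl5, and of Ccl4 and Ccl3 overlapped. With empty vector those of Cxcl2 and Ccl5 and of Ccl5 and Ccl4 overlapped as well. Ccl2 took 42.4% to 45.2% of the summed ligand CPM with wild-type Snai1, 70% to 70.7% with mutant Snai1 and 46.2% to 64.7% with empty vector. Ccl7 took 23.6% to 35.9% with wild-type Snai1, 2.29% to 4.11% with mutant Snai1 and 2.91% to 5.69% with empty vector.

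Mutant Snai1 left none of the ligand genes called against empty vector, where 0.00801% of all tested genes, Snai1 alone, were called higher and 0% lower. The median log2 fold change of the 8 tested ligand genes was 0.12, against -0.005 over all tested genes. Ccl2 and Ccl3 had an unadjusted p under 0.05, as did 4.83% of all tested genes, and in both every mutant library lay above every empty vector library, which held for 8.53% of tested genes. Ccl2 was 1.39-fold higher with mutant Snai1 than with empty vector (95% interval 1.25 to 1.55, edgeR adjusted p = 0.151). It was called in the fit of these 6 libraries alone (adjusted p = 0.00374), with DESeq2 (adjusted p = 2.25e-05) and without wild-type Snai1 replicate 1 (adjusted p = 0.0022), and over all 18 alternatives the adjusted p ran from 2.25e-05 to 1. Ccl3 was 2.13-fold higher with mutant Snai1, with an interval of 1.25 to 3.62 (edgeR adjusted p = 0.98) and at most 19 counts in any of these libraries. For Ccl9 every mutant library lay below the empty vector libraries, as for 9.04% of tested genes, with a log2 fold change of -0.53 (SE 0.28, edgeR adjusted p = 0.98) that came to -0.11 without empty vector replicate 1. The intervals of the fold for the others were 0.555 to 1.75 for Ccl7, 0.490 to 1.29 for Ccl4, 0.753 to 1.93 for Ccl5, 0.379 to 2.06 for Ccl6 and 0.755 to 1.88 for Cxcl2, so changes within these intervals were not excluded with 3 libraries a group.

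**Figure D2:**
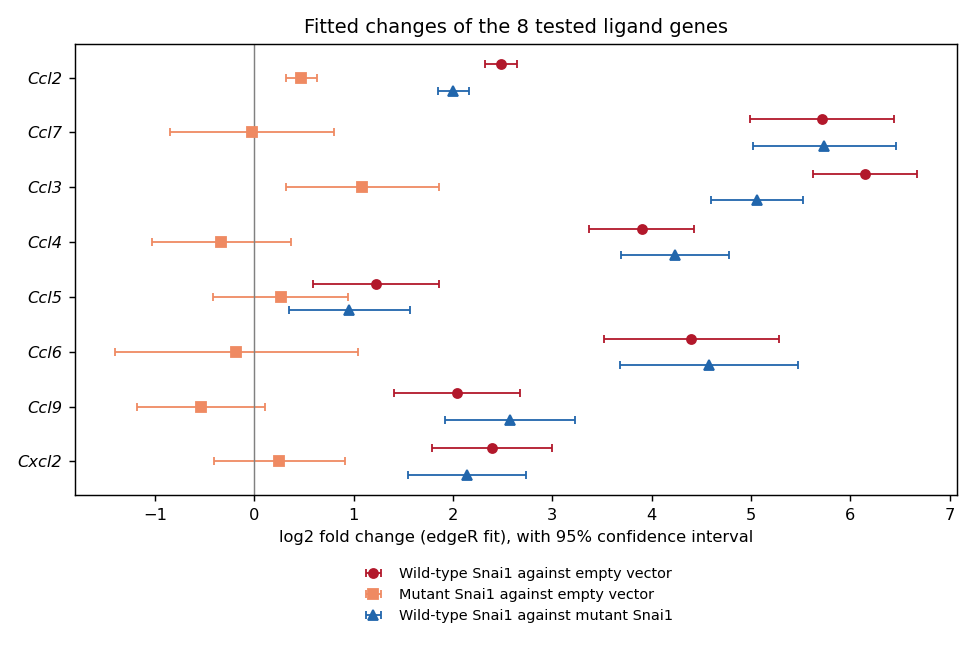
Log2 fold changes of the 8 tested ligand genes with 95% confidence intervals from the edgeR fit (horizontal axis), 1 colour for each comparison. All intervals of wild-type Snai1 against empty vector and against mutant Snai1 lie above 0, and those of mutant Snai1 against empty vector cross 0 except for Ccl2 and Ccl3.

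The direct comparison of wild-type with mutant Snai1 tests the difference between both effects at matched Snai1 transcript levels. All 8 tested ligand genes were called higher with wild-type Snai1, as were 24.5% of all tested genes, with 23.4% lower and 47.9% called in either direction. Their median log2 fold change was 3.40, and 7 of the 8 were at least 2-fold higher, as were 6.62% of all tested genes. The change was 5.74 for Ccl7 (SE 0.32, edgeR adjusted p = 1.89e-06), 5.06 for Ccl3 (SE 0.21, edgeR adjusted p = 6.61e-08) and 4.58 for Ccl6 (SE 0.40, edgeR adjusted p = 1.25e-05). It was 4.23 for Ccl4, 2.57 for Ccl9, 2.14 for Cxcl2 and 2.01 for Ccl2, with SEs of 0.07 to 0.29 and edgeR adjusted p of 2.11e-08 to 0.000132. Ccl5 had the smallest change, 0.96 (SE 0.28, edgeR adjusted p = 0.0153), and its call was lost without mutant replicate 1 (adjusted p = 0.0607) or mutant replicate 3 (adjusted p = 0.0583). Ccl12 and Cxcl10, not tested, had 0 counts in every mutant library. Their means with wild-type Snai1 were only 1.3 and 1.1 times the floor of 3 counts per mutant library. Wild-type replicate 3 held 2 counts of Ccl12, and wild-type replicate 2 held 0 of Cxcl10, so the size of a difference is not known.

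Chromosomal neighbours of the ligand genes did not all move with them. In the Ccl2 cluster the other chemokine genes, Ccl11, Ccl8 and Ccl1, had 0 to 3 counts in the wild-type Snai1 group, too few to test. Around Ccl3, 7 of 10 other genes within 100 kb of a ligand gene were tested, and 2 were called higher and 3 lower with wild-type Snai1 than with empty vector. Over all tested genes 25.2% were called higher and 24.3% lower. Those called higher were Wfdc17 and Wfdc21, which encode small secreted proteins of the whey acidic protein family. Wfdc17 had 375 counts with wild-type Snai1, 1 with mutant Snai1 and 4 with empty vector (edgeR adjusted p = 2.74e-05). Wfdc21 had 185 counts with wild-type Snai1, 2 with mutant Snai1 and 1 with empty vector (edgeR adjusted p = 0.000661). Mmp28, a matrix metalloproteinase, was lower with wild-type Snai1 by a log2 fold change of -2.03 (SE 0.38, edgeR adjusted p = 0.00135), and Taf15 and Heatr6 by -0.27 and -0.16. E230016K23Rik, which overlaps Ccl6 on the other strand, was not called (log2 fold change 0.42, SE 0.22, edgeR adjusted p = 0.146). Near Cxcl2 and Cxcl10, 0 of 4 tested neighbours were called, and Cxcl1, beside Cxcl2, had 4 counts with wild-type Snai1 and 0 elsewhere.

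**Figure D3:**
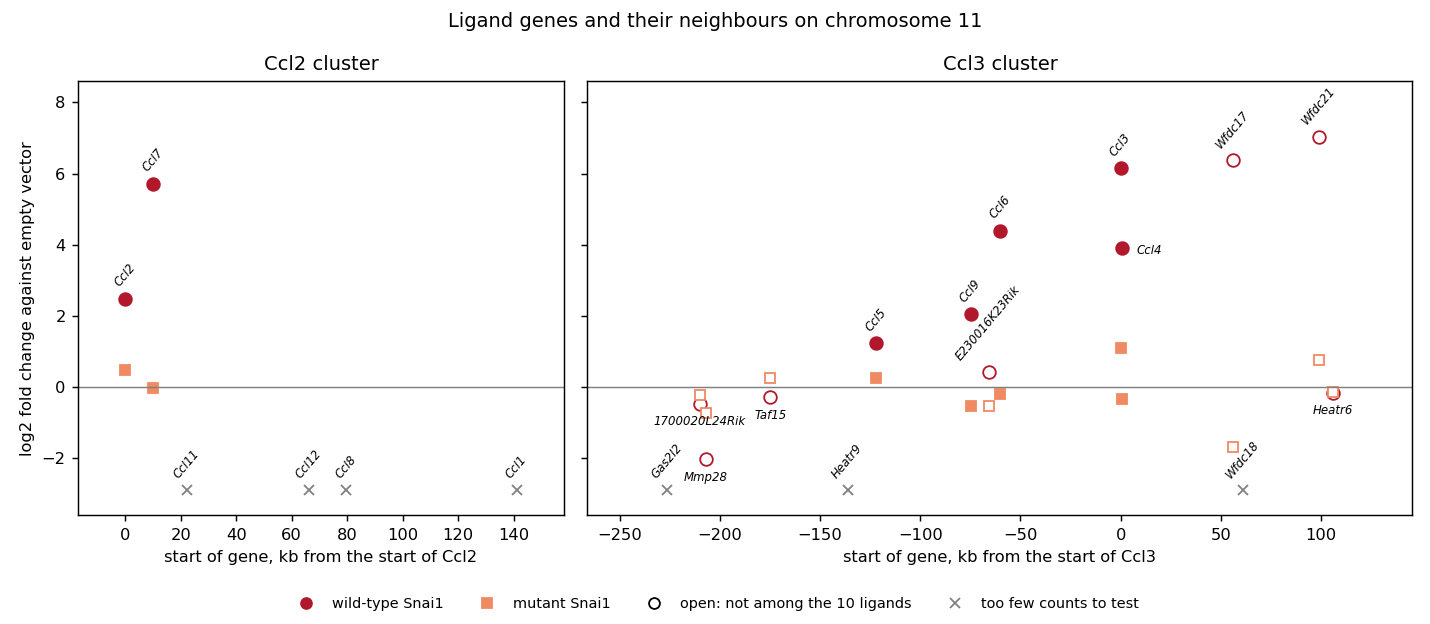
Log2 fold change over empty vector (vertical axis) of genes around Ccl2 and Ccl3 on chromosome 11, by the distance of their starts in kb, for wild-type Snai1 (circles) and mutant Snai1 (squares). Filled ligand genes rise with wild-type Snai1 beside open neighbours that fall or stay near 0, except Wfdc17 and Wfdc21, whose fitted values rest on 4 and 1 counts with empty vector.

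Of 29 other chemokine ligand genes, only 5 had enough counts to test and 12 had 0 counts in all 9 libraries. With wild-type Snai1 against empty vector 3 were called higher and 0 lower, with 1 called lower without wild-type Snai1 replicate 1 and in 3 other alternatives. Over all tested genes 25.2% were called higher and 24.3% lower. Pf4, a platelet chemokine, stood at 245, 288 and 282 CPM with wild-type Snai1, at 83.9, 51.8 and 71.2 CPM with mutant Snai1 and at 65.3, 69.5 and 84.6 CPM with empty vector. Its log2 fold change over empty vector was 1.89 (SE 0.17, edgeR adjusted p = 1.59e-05). Ppbp, a second platelet chemokine, changed by 2.74 (SE 0.31, edgeR adjusted p = 4.57e-05) and Cx3cl1, the membrane-bound ligand of Cx3cr1, by 2.01 (SE 0.36, edgeR adjusted p = 0.00182). Ccl25 and Ccl28, mucosal chemokines, were not called at log2 fold changes of -0.46 (SE 0.19) and 0.25 (SE 0.21).

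The receptors of the ligands moved in different directions. Ccr2, the receptor of Ccl2, Ccl7 and Ccl12, stood at 195, 494 and 542 CPM with wild-type Snai1, at 45.0, 55.2 and 62.3 CPM with mutant Snai1, and at 50.5, 44.0 and 46.8 CPM with empty vector. Wild-type replicate 1 was the lowest of its group and still above all others, and the log2 fold change over empty vector was 3.12 (SE 0.37, edgeR adjusted p = 0.000239). Ccr1, shared by Ccl3, Ccl5, Ccl6 and Ccl9, stood at 10.0, 22.0 and 27.7 CPM with wild-type Snai1, at 0.968, 0.948 and 0.766 CPM with mutant Snai1, and at 1.01, 0.578 and 0.697 CPM with empty vector. Its log2 fold change over empty vector was 4.71 (SE 0.41, edgeR adjusted p = 1.49e-05). Cxcr3, the receptor of Cxcl10, was instead lower with wild-type Snai1, at 2.79, 2.40 and 2.06 CPM, than with empty vector, at 4.47, 6.64 and 7.08 CPM (log2 fold change -1.33, SE 0.21, edgeR adjusted p = 0.000482). Cxcr2, the receptor of Cxcl2, stood at 0.351 to 0.489 CPM with wild-type Snai1 and 0.319 to 1.02 CPM with empty vector and was not called (log2 fold change -0.58, SE 0.45, edgeR adjusted p = 0.312).

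Across 24 chemokine receptor genes 14 were tested, of which 5 were called higher and 4 lower with wild-type Snai1 than with empty vector, 0 in either direction with mutant Snai1 than with empty vector, and 5 higher and 4 lower with wild-type than with mutant Snai1. For wild-type Snai1 against empty vector that was 35.7% higher and 28.6% lower, against 25.2% and 24.3% of all tested genes. Wild-type against mutant Snai1 gave the same shares of the list, against 24.5% and 23.4% of all tested genes. With mutant Snai1 against empty vector 0.00801% of all tested genes were called. The median log2 fold changes were 0.49 for wild-type Snai1 against empty vector, 0.22 for mutant Snai1 against empty vector and -0.07 for wild-type against mutant Snai1. Beside Ccr1 and Ccr2, Cx3cr1 and the atypical receptor Ccrl2 were among those called higher with wild-type Snai1 than with empty vector. Cx3cr1, the receptor of Cx3cl1, averaged 1.59 CPM with wild-type Snai1 and 0.0695 CPM with empty vector (log2 fold change 4.41, SE 0.63, edgeR adjusted p = 0.000249). Its empty vector libraries held 4 counts in all, below the floor of 3 counts per library, so the size of its rise is uncertain. Ccrl2 averaged 13.01 CPM with wild-type Snai1 and 3.04 CPM with empty vector (log2 fold change 2.10, SE 0.16, edgeR adjusted p = 3.43e-06). Cxcr4, which holds blood progenitors in the marrow, averaged 6.96 CPM with wild-type Snai1 and 48.9 CPM with empty vector (log2 fold change -2.81, SE 0.13, edgeR adjusted p = 1.05e-07). Ccr9, a receptor of thymus- and gut-homing cells, was lower by a log2 fold change of -6.22 (SE 0.34, edgeR adjusted p = 3.26e-07), and Ccr7, a receptor of cells bound for lymph nodes, by -0.88 (SE 0.30, edgeR adjusted p = 0.0322). Ccr9 had 5 counts in all with wild-type Snai1 and 385 with empty vector. Its wild-type mean, 0.0822 CPM, lay below the floor of 3 counts, so the size of its fall is uncertain.

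**Figure D4:**
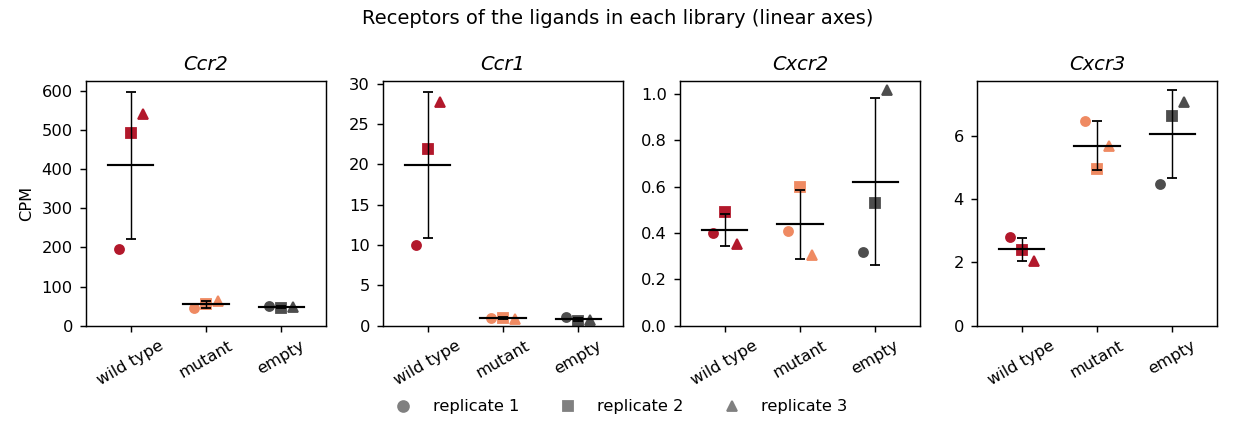
CPM of 4 receptors of the ligands (vertical axes, linear, from 0) in every library, with the bar at the mean and whiskers of 1 SD over 3 libraries. Ccr2 and Ccr1 are high in the wild-type Snai1 libraries, Cxcr3 is low there, and the groups overlap for Cxcr2.

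Genes of the pathways known to drive chemokine transcription moved in part with the ligands. On a list of 19 NF-kB subunits and feedback inhibitors, 13 were called higher and 3 lower with wild-type Snai1 than with empty vector, with a median log2 fold change of 0.35. That was 68.4% higher and 15.8% lower, against 25.2% and 24.3% of all tested genes. Nfkbiz, an inducible co-activator of the pathway, averaged 116 CPM with wild-type Snai1 and 17.6 CPM with empty vector (log2 fold change 2.72, SE 0.21, edgeR adjusted p = 6.37e-06). Nfkbia and Tnfaip3, feedback inhibitors, changed by 1.40 (SE 0.11) and 1.13 (SE 0.09), and the kinase gene Ikbke by 1.78 (SE 0.20). Nfkbie, Ikbkb and Ikbkg of the same list went the other way. Their means were 39.0, 93.8 and 72.8 CPM with wild-type Snai1 and 55.3, 104.6 and 89.5 CPM with empty vector. Of 19 inflammatory cytokine genes, 8 were tested, 6 were called higher (75%) and 0 lower, with a median of 1.06. Tnf averaged 91.3 CPM with wild-type Snai1 and 37.8 CPM with empty vector (log2 fold change 1.27, SE 0.17, edgeR adjusted p = 0.000184), and Il1b averaged 19.3 CPM with wild-type Snai1 and 0.650 CPM with empty vector (log2 fold change 4.87, SE 0.54, edgeR adjusted p = 8.67e-05). Csf1, the macrophage growth factor, changed by 1.27 (SE 0.09). Il1rn, the interleukin-1 receptor antagonist, stood at 2.44, 3.57 and 4.61 CPM with wild-type Snai1 and had 0 counts in every empty vector library. Against empty vector, mutant Snai1 left 0 genes of either list called, where 0.00801% of all tested genes were called. Wild-type Snai1 exceeded mutant Snai1 for 11 NF-kB genes (57.9%) and 6 cytokine genes (75%), while 2 NF-kB genes (10.5%) and 0 cytokine genes were lower. Over all tested genes, 24.5% were called higher and 23.4% lower in that comparison.

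Interferon-stimulated genes, the class to which Cxcl10 belongs, were tested for 20 of 28 members, of which 13 were called higher and 3 lower with wild-type Snai1 than with empty vector (median log2 fold change 1.37). That was 65% higher and 15% lower, against 25.2% and 24.3% of all tested genes. Rsad2 averaged 10.6 CPM with wild-type Snai1 and 2.96 CPM with empty vector (log2 fold change 1.84, SE 0.26), and Ifit1 averaged 3.36 CPM with wild-type Snai1 and 0.381 CPM with empty vector (log2 fold change 3.13, SE 0.47). Gbp2 and Gbp3 changed by 1.04 and 1.80 on the log2 scale, and these 4 genes had edgeR adjusted p of 0.000259 to 0.000772. Ifit2, Ifih1 and Irf1 went the other way. Their means were 14.9, 7.23 and 41.9 CPM with wild-type Snai1 and 26.3, 12.75 and 50.8 CPM with empty vector. Wild-type Snai1 against mutant Snai1 gave the same counts, 13 higher and 3 lower, with 6 lower without wild-type replicate 1. Over all tested genes that comparison called 24.5% higher and 23.4% lower. On a list of 10 factors that stabilise or degrade cytokine transcripts, 3 were called higher and 0 lower with wild-type Snai1 than with empty vector. The share called higher was 30%, near the 25.2% of all tested genes. Without wild-type replicate 1 the counts were 5 higher and 2 lower. The 3 called with all libraries were Zfp36l1 (log2 fold change 0.78, SE 0.10), Zc3h12a, which encodes the RNase Regnase-1 (1.52, SE 0.25), and Elavl1 (0.22, SE 0.06). Wild-type against mutant Snai1 gave 2 higher and 0 lower, against 4 higher and 1 lower without that replicate. The 2 were 20% of the list, near the 24.5% of all tested genes. Neither list had a gene called with mutant Snai1 against empty vector, where 0.00801% of all tested genes were called.

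Immediate-early genes, which include AP-1 subunits and also respond to cell handling, were tested for 18 of 21 members. With wild-type Snai1 against empty vector 11 were called higher and 0 lower (median log2 fold change 2.05), against 6 higher with limma-voom. The 11 were 61.1% of those tested, where 25.2% of all tested genes were called higher. Jun averaged 255 CPM with wild-type Snai1 and 46.6 CPM with empty vector (log2 fold change 2.45, SE 0.27, edgeR adjusted p = 0.00011), and Btg2 averaged 129.7 CPM with wild-type Snai1 and 11.5 CPM with empty vector (log2 fold change 3.50, SE 0.47). Ier5 and Fosb changed by 2.18 and 2.81. Against mutant Snai1, 8 were higher with wild-type Snai1, which was 44.4% of those tested, against 24.5% of all tested genes. This count was 14 with wild-type replicate 1 left out and 5 with wild-type replicate 2 or 3 left out or with limma-voom. Wild-type replicate 1 stood apart on this list. The median log2 difference of its members from the empty vector mean was 0.14 in that library, 2.09 in replicate 2 and 2.57 in replicate 3, and the interferon list stood at 2.02 in replicate 1, 0.73 in replicate 2 and 1.04 in replicate 3. The same median over the 8 tested ligand genes was 3.14 in replicate 1, 2.93 in replicate 2 and 3.43 in replicate 3. Cxcl2, Ccl6 and Ccl9 were lowest in wild-type replicate 1, and Ccl2, Ccl7 and Ccl5 highest, and the part of either list in the ligand result was not tested. Without that library all 8 tested ligand genes were still called higher against both other groups, with log2 fold changes over empty vector of 2.63 for Cxcl2, 4.62 for Ccl6, 2.19 for Ccl9, 5.46 for Ccl7 and 1.12 for Ccl5.

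**Figure D5:**
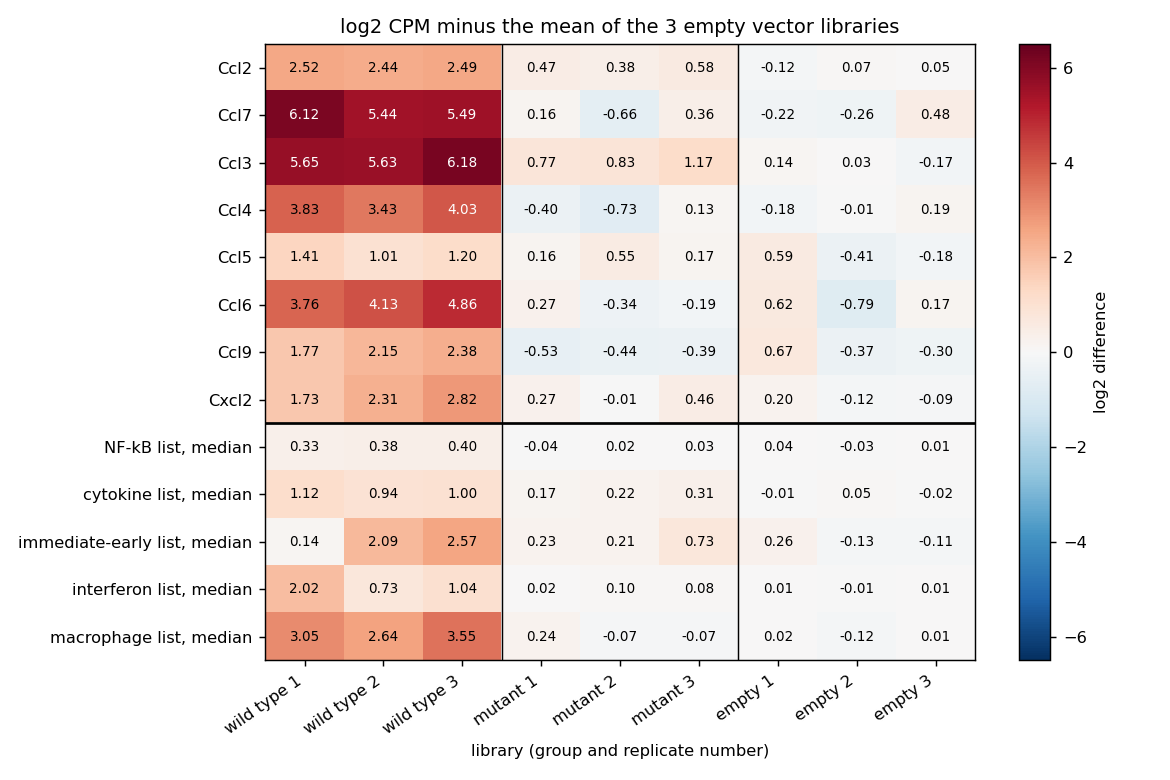
Log2 CPM of the 8 tested ligand genes, and the median over the tested genes of 5 lists, minus the mean of the 3 empty vector libraries, for each library (columns). Wild-type Snai1 replicate 1 shows the immediate-early list at 0.14, near the control libraries, while the ligand genes are raised in all 3 wild-type libraries.

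Some markers of other blood cells were higher in the same libraries as the ligand genes, and others were lower or not called. Over all tested genes, 25.2% were called higher and 24.3% lower with wild-type Snai1 than with empty vector, the comparison used for every list here. Of 18 monocyte and macrophage markers, 13 were tested, and 9 were called higher (69.2%) and 3 lower (23.1%) with wild-type Snai1 than with empty vector. Their summed level was 667 to 982 CPM with wild-type Snai1, 148 to 158 CPM with mutant Snai1 and 147 to 173 CPM with empty vector. Lyz2, the macrophage lysozyme, averaged 406 CPM with wild-type Snai1 and 11.6 CPM with empty vector, and Mpeg1, a pore-forming protein of phagocytes, averaged 119.8 CPM with wild-type Snai1 and 0.967 CPM with empty vector. Itgam and Fcgr1 were among the markers called lower, and none of the 18 had 0 counts in all libraries. Among 14 late neutrophil markers, 7 were tested, with 3 called higher (42.9%) and 1 lower (14.3%). Their summed level was 117 to 246 CPM with wild-type Snai1, 74.4 to 81.6 CPM with mutant Snai1 and 74.3 to 83.2 CPM with empty vector, and Ly6g and Retnlg had 0 counts throughout. Lcn2 averaged 83.1 CPM with wild-type Snai1 and 0.224 CPM with empty vector, and Mmp9 averaged 23.3 and 1.43 CPM. Padi4 went the other way, with averages of 0.166 CPM with wild-type Snai1 and 0.697 CPM with empty vector. Of the 14 megakaryocyte and platelet markers, a list that holds Pf4 and Ppbp, 11 were tested, with 7 called higher (63.6%) and 2 lower (18.2%). Their sum was 1687 to 2128 CPM with wild-type Snai1, 1352 to 1449 CPM with mutant Snai1 and 1476 to 1638 CPM with empty vector. Of the 15 mast cell and basophil markers 6 were tested, with 3 called higher (50%) and 1 lower (16.7%), and Mcpt1, Mcpt2 and Mcpt8 had 0 counts. Their sum was 4065 to 4297 CPM with wild-type Snai1, 3412 to 3578 CPM with mutant Snai1 and 3076 to 3448 CPM with empty vector. Most of this sum was Cpa3, at means of 3613 CPM with wild-type Snai1 and 2964 CPM with empty vector. Il1rl1 averaged 197.7 CPM with wild-type Snai1 and 66.7 CPM with empty vector. Hdc went the other way, at 1.92 CPM with wild-type Snai1 and 7.27 CPM with empty vector. Of the 16 T and NK cell markers (Cd3e and Ncr1 at 0 counts) only 3 were tested, which gave 1 higher and 1 lower. Their sum was 191 to 253 CPM with wild-type Snai1, 258 to 284 CPM with mutant Snai1 and 239 to 258 CPM with empty vector. Most of this sum was Nkg7, at means of 177 CPM with wild-type Snai1 and 203 CPM with empty vector. Of the 14 stromal markers (Col3a1 and Dcn at 0 counts) only 2 were tested, which gave 0 higher and 1 lower. Their sum was 718 to 874 CPM with wild-type Snai1, 867 to 913 CPM with mutant Snai1 and 912 to 971 CPM with empty vector. Nearly all of it was Pdgfrb and Pecam1, at means of 386 and 426 CPM with wild-type Snai1 and 505 and 435 CPM with empty vector. The part of cell composition in the ligand result was not tested, and in these bulk libraries more cells of a type and more RNA per cell cannot be told apart.

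The genes with the most similar profile were found for each ligand gene as those with the smallest root-mean-square difference of mean-centred log2 CPM over the 9 libraries, among 11381 genes. The points are 9 libraries in 3 groups, so genes that differ in the same group can rank as alike. Nearest to Ccl2 were 4933430I17Rik, Osgin1 and Prag1 (0.169 to 0.184), and nearest to Ccl7 were Cd200r2, C3ar1 and Adgre1 (0.231 to 0.412). Ccl3 lay nearest to Lyz2, Il1rn and Fpr1 (0.369 to 0.471), and Ccl4 to Ptgs2, Spin4 and Cd300lb (0.257 to 0.260). Ccl5 lay nearest to 1110008P14Rik, Ccdc126 and Nav2 (0.175 to 0.244), Ccl6 to its receptor gene Ccr1, Trem1 and Ptgs2 (0.326 to 0.467), and Ccl9 to Slc16a9, Pkd1l1 and Rasl11a (0.297 to 0.316). Cxcl2 lay nearest to Jun, Nabp1 and Ier5 (0.139 to 0.183), of which Jun and Ier5 are on the immediate-early list. Among the ligand genes themselves, Ccl2 and Cxcl2 were closest (0.322), followed by Ccl9 and Cxcl2 (0.381), Ccl2 and Ccl9 (0.524), Ccl4 and Ccl6 (0.535) and Ccl3 and Ccl7 (0.615), while Ccl5 and Ccl7 were the farthest apart (2.26). The pair of adjacent genes Ccl2 and Ccl7 lay at 1.68 and the pair Ccl3 and Ccl4 at 0.877.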

How the data were processed

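RNA sequencing counts from 9 HPC7 libraries, 3 per group, were analysed. The deposited files hold raw counts by gene, made by the authors with featureCounts on mm10, per the submitters' processing notes, which also name edgeR 3.15.0 and limma 3.29.12. Libraries were TruSeq stranded mRNA, per the labels' protocols. The aligner, annotation and strand setting are not given in the sources used here, so overlapping genes on opposite strands are named beside their values. The table has 27179 Entrez identifiers, of which RefSeq GRCm38.p6 named 25275 and GENCODE M21 a further 18.

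In R 4.3.3, edgeR 4.0.16 removed low counts (filterByExpr, leaving 12484 genes), scaled libraries with TMM and fitted all 9 in 1 robust quasi-likelihood model without pairing. P-values were adjusted over all 12484 genes by the Benjamini-Hochberg method. The floor of 3 counts and the 95% counting intervals cover counting error only, since PCR copies are not independent molecules. With 3 libraries a group, the smallest two-sided p of an exact permutation test is 0.1, and it was 0.1 for each tested ligand gene with wild-type Snai1 against empty vector. Log2 CPM used a prior count of 2. The fit was tested on simulated data with known changes.

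The ligand genes and lists were chosen with earlier results of these data known. From each pathway list, up to 4 called genes with the smallest adjusted p in wild-type Snai1 against empty vector were named, plus the 3 genes with the most similar profile to each tested ligand gene. Genes named outside this rule were chosen after their values were seen. They include Ccr1, Ccr2, Cxcr2, Cxcr3 and other receptors, the neighbours within 100 kb and the markers. Nfkbie, Ikbkb, Ikbkg, Ifit2, Ifih1 and Irf1 are also among them. Some genes of the lists are counted but not reported here by name. Both Snai1 groups share the empty vector libraries. Alternatives were other normalizations and filters, DESeq2 1.42.0, limma-voom (limma 3.58.1), the 2 groups alone, a replicate block and each library left out.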

Additional observations from a re-analysis of the deposited data

How the results depend on the processing

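Every call of the 8 tested ligand genes with wild-type Snai1 against empty vector was kept in all 18 alternatives, the largest adjusted p being 0.0252 for Ccl5. Over the 3 comparisons, 427 of 432 values of a ligand gene under an alternative kept their side of the threshold, and the 5 others were the values of Ccl2 and Ccl5 given above. No called value changed sign, while values not called could: Ccl6 with mutant Snai1 against empty vector had a log2 fold change of -0.18, and 0.22 without empty vector replicate 1. With mutant Snai1 against empty vector, the count of ligand genes called higher was 1 with only the 2 groups compared and with DESeq2, and ran from 0 to 1 with each library left out. The count of all genes called higher was 13 with only the 2 groups compared, 6 with DESeq2 and 2 with limma-voom, and ran from 1 to 28 with each library left out, being 28 without wild-type Snai1 replicate 1. The count of all genes called lower was 17 with only the 2 groups compared and 4 with DESeq2, and ran from 0 to 34 with each library left out, again highest without wild-type Snai1 replicate 1. The cause was not tested. A replicate block changed no call of a ligand gene, with 8 called higher against empty vector and 8 against mutant Snai1, and 0 with mutant Snai1 against empty vector. Replicate numbers were not used as pairs, since deviations from group means correlated at -0.087 to 0.21 between same-numbered libraries, 2 of 9 pairs above 0.1, and 4 of 9 libraries correlated best with their own number. Without a filter on low counts, Ccl12 had an adjusted p of 0.077 and Cxcl10 of 0.0731 with wild-type Snai1 against empty vector, and Ccl12 had 0.0114 with wild-type against mutant Snai1, so their depth of at most 6 counts per library limits what can be said of them.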
